A study of Mus musculus with 15 samples.

Results

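The comparison described here is E3 (estriol) against E2 (estradiol) in the mouse uterus 24 hr after a single injection, and it rests on 6 of the 15 arrays analysed here. The members were the arrays whose titles name the uterus, estriol or estradiol, and the 24 hr time, which gave 3 E3 arrays and 3 E2 arrays. The study asked whether weak and environmental estrogens give the same early and late uterine responses as E2. It gives its E3 profiles for wild-type mice, and among the array titles only those of E2 at 2 hr name WT. Every group used ovariectomized adult females (10 or more weeks of age) with the strain label C57bl6/J, rested for 10 to 14 days after surgery, and injected intraperitoneally with 100 ul of saline that held 250 ng of E2, 250 ng of E3, or no hormone. Saline arrays at 24 hr (3 arrays) gave the level without hormone, and E3 arrays at 2 hr (3 arrays) gave the early response, for which the same 24 hr saline arrays served as the vehicle. The labels describe each uterus as homogenized singly, whereas the methods describe pooled tissue, so whether 1 array is 1 animal is not settled, and p-values measure only the spread between these arrays.

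E2 is the main ovarian estrogen, and E3 differs from it by an additional hydroxyl group on the D ring. E3 is known as a weak, short-acting estrogen: it binds the same nuclear receptor, ERα, but leaves the receptor and the tissue sooner after a single injection. In the ovariectomized rodent uterus, an estrogen first sets off a wave of early transcription with water uptake and then, about a day later, a round of DNA synthesis and cell division in the epithelium, with a rise in protein, lipid, and secretory output. The 24 hr time, at which the compounds are set against each other here, falls in the later part of this program.

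Values are log2 Cy3 intensity minus the log2 of the 75th percentile of that array, so that 0 is the 75th percentile of signal and 1 unit is a 2-fold difference. Differences are given as E3 minus E2, with the standard error (SE) of limma's linear model fitted to all arrays, and n = 3 arrays in each group throughout. A gene was called when p was below 0.001 and the change at least 2-fold, and the adjusted p (Benjamini-Hochberg over all tested probes) is given beside it. No gene's level is set against another gene's, because probes differ in brightness. In whole tissue, fewer cells of a type and less RNA per cell cannot be told apart.

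Several arrays stood apart before any gene was compared. In intensity units, the 75th percentile was 3390 to 3829 for E2 and 3125 to 3765 for E3, and 78.3% to 81.6% of probes were well above background. Markers of the exocrine pancreas were high on E2 replicate 2, with a median of 4.58 over the list against -7.24 and -1.50 on the other E2 arrays and -6.99 to -6.36 on the E3 arrays. Markers of macrophages and of B cells and lymph node were high on E3 replicate 3: the summed linear level was 69.35 for macrophage markers and 36.64 for B cell and lymph node markers, against 25.39 and 25.04, and 2.49 and 2.19, on the other E3 arrays. The E2 arrays lay between 23.31 and 31.51 and between 6.22 and 20.66 for these lists. E3 replicate 3 correlated at r = 0.982 and 0.983 with the other E3 arrays across probes, which correlated at 0.995 with each other. Fat markers were 0.25 and 1.36 in median on E3 replicates 2 and 1 but -1.59 on E3 replicate 3, against -1.07 to -0.77 on the E2 arrays. The part of these tissues in the differences was not tested, although counts without E2 replicate 2 and E3 replicate 3 are given. No slide held both groups, since the E3 arrays shared 1 slide and the E2 arrays lay on 2 others, and the effect of the slide and that of the compound cannot be told apart. The uterine markers were present on every array, with medians of 3.34 to 3.56 for E2 and 3.22 to 3.64 for E3, and smooth muscle markers lay at 4.88 to 4.99 and 5.19 to 5.55.

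Of 17885 genes tested, 419 (2.34%) were called lower and 536 (3.00%) were called higher after E3 than after E2. The differences were mostly moderate, with a median of 2.54-fold among genes that were lower and 2.55-fold among genes that were higher, and 71 and 53 genes, respectively, differed by more than 4-fold. The largest adjusted p among the called genes was 0.00534. In each called gene the E3 values at hand lay outside the E2 values, where outlier spots had left some genes with fewer than 3 values, but this also held for 53.4% of all tested genes. Without E2 replicate 2 and E3 replicate 3, 341 genes were called lower and 518 higher, and 733 of the 955 genes were called in both settings.

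**Figure D1:**
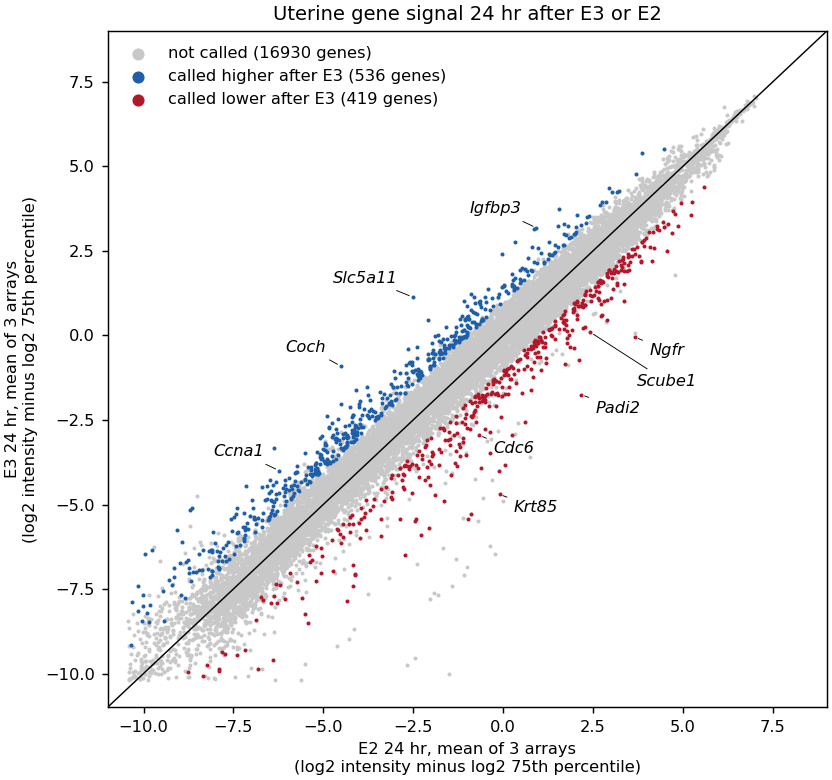
Mean log2 intensity relative to the 75th percentile after E2 (horizontal) and E3 (vertical) at 24 hr, with 1 point per tested gene and n = 3 arrays a group. The 536 genes called higher after E3 (blue) lie above the line of equal signal and the 419 genes called lower (red) below it.

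The levels of these genes without hormone lay mostly near those after E3. Among the 419 genes that were lower after E3, the median difference from saline was 1.78 after E2 and 0.36 after E3. Among the 536 genes that were higher after E3, the median difference from saline was -1.63 after E2 and -0.25 after E3. The E2 and E3 differences from saline use the same saline arrays and are therefore given side by side only.

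E3 had already moved part of these genes at 2 hr, in arrays whose means do not enter the 24 hr difference. Both comparisons share the estimate of the spread over all arrays, so their calls are not independent of each other. Of the 419 genes lower after E3 at 24 hr, 110 (26.3%) had been called higher than saline 2 hr after E3, against 4.67% of all tested genes, and these 110 made up 13.2% of the 836 genes raised at 2 hr. Of the 536 genes higher after E3 at 24 hr, 168 (31.3%) had been called lower than saline at 2 hr, against 7.55% of all tested genes, and they made up 12.4% of the 1351 genes lowered at 2 hr. At 2 hr, too, arrays stood apart. Pancreas markers had a median of 5.98 on E3 replicate 2 and -0.55 on E3 replicate 3, against -7.30 on E3 replicate 1. On E3 replicate 3 the summed linear level was 58.41 for B cell and lymph node markers and 52.37 for macrophage markers, against 13.46 and 19.17, and 20.14 and 25.50, on the other 2 hr E3 arrays. Without replicate 2 of the 2 hr arrays the counts of 110 and 168 were 109 and 163, against 4.45% and 7.44% of all tested genes. Without replicate 3 they were 109 and 141, against 4.79% and 6.75%. Leaving out both would leave too few arrays for a count.

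Padi2 and Ngfr were among the genes with the largest differences downward, and both had risen early after E3. Padi2, a peptidylarginine deiminase that converts arginine to citrulline in proteins, lay at -2.27 to -2.10 on the saline arrays, at 1.99, 2.19 and 2.34 after E2, and at -1.80, -1.84 and -1.61 after E3. The E3 values were thus back near the saline level, and the difference was -3.93 ± 0.22 (SE), adjusted p = 1.18e-06. At 2 hr after E3, Padi2 had been 3.49 above saline. Ngfr, the low-affinity neurotrophin receptor, had an adjusted p of 3.12e-07. It read 3.40, 3.70 and 3.91 after E2 and -0.23, 0.22 and -0.14 after E3, a difference of -3.72 ± 0.17 (SE), and the E3 arrays lay below the saline arrays, which read 0.51 to 1.07. Ngfr had also been raised 2 hr after E3, by 3.41.

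Unc5cl, a death-domain protein of epithelial cells, differed by -3.91 ± 0.40 (SE, adjusted p = 3.63e-05), and its E3 values of -4.40 to -3.75 lay above the saline values of -6.41 to -4.69. Atp2c2, a secretory-pathway calcium and manganese pump, differed by -3.89 ± 0.50 (SE, adjusted p = 0.000131). Dhrs9, a retinol dehydrogenase, read -0.47, -1.02 and -0.33 after E2 and -3.16, -4.12 and -4.45 after E3 (difference -3.31 ± 0.31 (SE), adjusted p = 2.01e-05). Gsdmc2 of the gasdermin family, Chst13, a chondroitin sulfotransferase, Scgb3a1, a secretoglobin, and Atp13a4, a P5-type ATPase, differed by -3.76, -3.63, -3.62 and -3.50, all from dim signals. These 4 lost their calls when normexp replaced the scanner's background subtraction, with differences of -1.49, -1.84, -1.79 and -0.46. Atp13a4 was well above background on 2 of the 3 E3 arrays.

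Type II hair keratins had the largest differences of all the genes named by the rule. Krt85 read -8.24 to -7.33 on the saline arrays, -0.60, -0.07 and 0.38 after E2, and -3.64, -4.67 and -5.79 after E3, a difference of -4.60 ± 0.45 (SE, adjusted p = 2.78e-05). Krt86 and Krt87 differed by -4.43 ± 0.25 and -4.38 ± 0.28 (SE). At 2 hr after E3 these keratins had been 10.78, 7.97 and 7.82 above saline. The keratins are near-identical in parts of their sequence, so the probes may share signal and the 3 genes are not independent of each other.

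DNA replication genes were lower after E3 as a group. Of 34 tested genes, 15 were called lower (44.1%, against 2.34% of all genes), 0 were called higher, and all 34 had differences below 0. The median difference was -1.01, against 0.03 over all genes. Against saline, 24 of the 34 genes were called higher after E2 (7.70% of all genes) and 2 after E3 (2.28%), with median differences of 1.32 and 0.37. The median of the list was 1.73, 1.74 and 1.86 on the E2 arrays, 1.03, 1.00 and 0.54 on the E3 arrays, and 0.49 to 0.61 on the saline arrays. The lowest E3 array was the one rich in macrophage and lymph node markers, whose part in this was not tested. The other E3 arrays lay between the saline and E2 arrays, and without the pair of arrays that stood apart 14 genes of the list were called lower.

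The genes called included some of those that load and start the replicative helicase. The loading factor Cdt1, the origin subunit Orc6, and the helicase subunits Mcm6 and Mcm7 were not called, with differences of -0.88, -0.54, -0.98 and -0.76. Cdc6, which loads the helicase at origins, read -0.73, -0.78 and -0.49 after E2 and -3.12, -2.97 and -2.77 after E3, against -4.23 to -2.99 after saline (difference -2.29 ± 0.39 (SE), adjusted p = 0.000899). The E3 values did not overlap the E2 values and lay at the upper edge of the saline values. Orc1, a subunit of the origin recognition complex, differed by -2.13 ± 0.29 (SE, adjusted p = 0.000178), and Mcm10, which helps activate the helicase, by -2.02 ± 0.36 (SE, adjusted p = 0.00113). Under normexp Orc1 differed by -1.01 and was not called. The helicase subunits Mcm2, Mcm5, Mcm3 and Mcm4 differed by -1.85, -1.63, -1.57 and -1.09, and the helicase partners Cdc45, Gins1 and Gins2 by -1.56, -1.29 and -1.04. Mcm5 read 0.70 to 1.25 after saline, 3.06 to 3.27 after E2, and 1.37 to 1.64 after E3.

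Genes of the replication fork and of nucleotide supply followed. Pcna, the sliding clamp of DNA polymerases, read 4.72 to 4.84 after E2 and 3.41 to 3.76 after E3, the latter overlapping the saline values of 3.28 to 3.55, and differed by -1.17 ± 0.10 (SE, adjusted p = 1.62e-05). The polymerase subunits Pole2 and Pold2 differed by -1.55 and -1.21, the flap endonuclease Fen1 by -1.37, and Tyms, the thymidylate synthase, by -1.20. Rrm2, the regulated subunit of ribonucleotide reductase, differed by -1.62 but was not called (adjusted p = 0.0212), with E3 values spread over -2.21, -1.63 and -0.79. The smallest difference in the list was that of the primase subunit Prim1 (-0.27, 95% interval -0.47 to -0.06).

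Mitosis genes differed far less between the compounds by their median. Of 32 tested genes, 0 were called in either direction by limma at p below 0.001 and 2-fold, and 5 had an unadjusted p under 0.05. An adjusted p of 0.05 was passed by 3, all lower after E3. The median difference was -0.26, and 24 of the 32 genes had differences below 0. Against saline, 31 genes were called higher after E2 (7.70% of all genes) and 29 after E3 (2.28%), with median differences of 2.54 and 2.22. The list median was 0.85, 0.96 and 1.09 on the E2 arrays and 0.90, 0.68 and 0.26 on the E3 arrays, against -1.80, -0.92 and -1.92 on the saline arrays. The lowest E3 value and the highest saline value again came from arrays with high lymph node markers (medians -0.86 and -0.29, against -4.41 to -4.60 for the others of their groups). The part of that tissue was not tested.

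Single mitotic genes show what the data can and cannot separate. Cdc20, an activator of the anaphase-promoting complex, read 3.13 to 3.18 after E2 and 3.46, 3.45 and 3.00 after E3, and the difference was 0.15 with a 95% interval of -0.44 to 0.73. Ccnb2, a mitotic cyclin, differed by 0.27 (-0.50 to 1.04), the spindle motor Kif11 by -0.24 (-1.05 to 0.57), and the centromeric histone Cenpa by 0.56 (-0.12 to 1.25). The intervals of Ccnb2, Kif11 and Cenpa reach past a 2-fold difference, so equal action of the compounds is not shown for them. Top2a, the DNA topoisomerase of dividing cells, had the largest difference downward in the list (-0.91, interval -1.88 to 0.07, adjusted p = 0.135). The difference between the replication and mitosis lists was not tested.

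**Figure D2:**
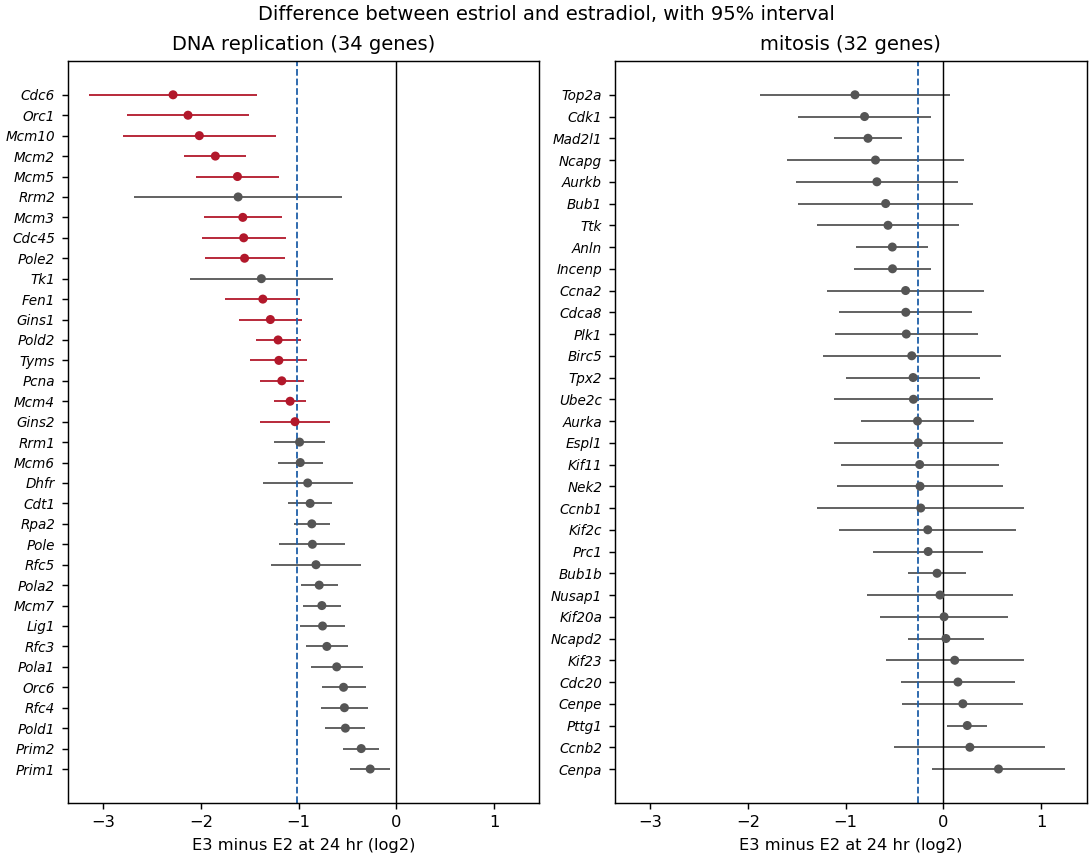
E3 minus E2 at 24 hr (log2) with 95% intervals for 34 DNA replication genes (left) and 32 mitosis genes (right), n = 3 arrays a group. Genes called lower are red, the dashed line is the median of the list (-1.01 and -0.26), and all 34 replication genes lie below 0 while the mitosis genes lie on both sides of it.

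Promoter letters known from cell cycle genes were looked up for both lists, and stretches that hold them are shown here for genes of each list named above. E2F sites are known for genes of the G1/S phase and the CHR element for genes of G2/M. Windows of 250 bases before the start site were at hand for 13542 of the 17885 tested genes (RefSeq, GRCm38.p6). An E2F match (TTTGGCGC, TTTCGCGC, TTTCCCGC or TTTGCCGC on either strand) was in 7 of 28 DNA replication windows (25%) and in 2 of 27 mitosis windows (7.41%), against 3.26% of tested genes and 2.16% of all windows. The CHR letters TTTGAA, on either strand, were in 11 of 27 mitosis windows (40.7%) and 4 of 28 replication windows (14.3%), against 14.3% of tested genes and 18.3% of all windows. A match is a description of letters and not a shown site, and only the stretch around each match is printed, 5′ to 3′ on the strand of the gene, with the match in capitals. In Mcm5 the reverse complement of TTTGGCGC overlaps the marked match and is not marked separately.
Cdc6: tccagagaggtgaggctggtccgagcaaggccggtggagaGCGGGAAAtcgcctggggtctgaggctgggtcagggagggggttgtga
Orc1: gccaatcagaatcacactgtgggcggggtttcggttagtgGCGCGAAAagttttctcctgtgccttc
Mcm5: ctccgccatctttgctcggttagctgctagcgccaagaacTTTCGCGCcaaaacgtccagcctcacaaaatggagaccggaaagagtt
Ccnb2: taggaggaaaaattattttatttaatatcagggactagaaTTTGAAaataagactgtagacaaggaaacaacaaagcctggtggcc
Cdc20: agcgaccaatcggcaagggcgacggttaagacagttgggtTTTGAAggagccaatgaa
Kif11: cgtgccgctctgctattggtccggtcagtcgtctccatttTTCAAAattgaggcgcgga
The stretches lie at chr11:98907973-98908060 (plus strand, Cdc6), chr4:108579387-108579453 (plus strand, Orc1), chr8:75109316-75109403 (plus strand, Mcm5), chr9:70421676-70421761 (minus strand, Ccnb2), chr4:118437344-118437401 (minus strand, Cdc20) and chr19:37376323-37376381 (plus strand, Kif11).

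G1 regulators were split. Of 21 tested genes, 3 were called lower (2.34% of all genes) and 0 higher (3.00%), with a median difference of -0.69. The called genes were Ccne1 and Ccne2, the E cyclins that drive entry into S phase, and E2f8, an atypical E2F repressor that is itself induced in late G1. Ccne1 read 1.00, 1.03 and 1.14 after E2 and -1.48, -1.05 and -0.56 after E3, against -1.95 to -0.84 after saline, and differed by -2.08 ± 0.35 (SE, adjusted p = 0.000803). Its E3 values lay within or just above the saline values. Under normexp Ccne2 and E2f8 were not called (-0.99 and -1.36). Ccnd1 and Myc, early growth-factor targets, differed by -0.93 (adjusted p = 0.000178) and -0.84 (adjusted p = 0.000494) and stayed under the 2-fold limit. Cdkn1b, an inhibitor of the cyclin E kinase, had a difference of 0.69 in the other direction (adjusted p = 0.000151), from 0.89 to 1.03 after E2 to 1.55 to 1.77 after E3.

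**Figure D3:**
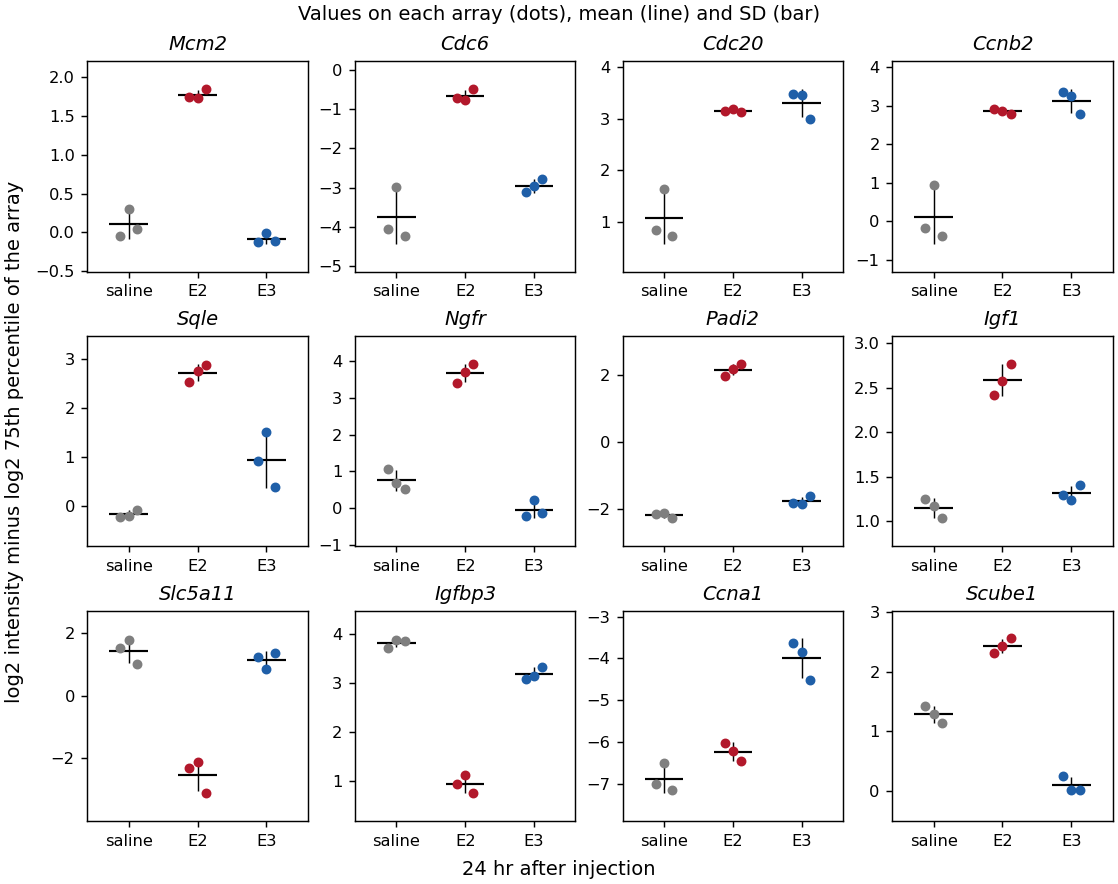
Log2 intensity relative to the 75th percentile for 12 genes on each saline, E2 and E3 array at 24 hr (dots), with the mean (line) and SD (bar) of n = 3 arrays. Mcm2, Padi2, Igf1 and Slc5a11 lie near saline after E3, Cdc20 and Ccnb2 lie near the E2 level, Ccna1 lies farther from saline after E3 than after E2, and Scube1 lies above saline after E2 and below it after E3.

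Ribosome biogenesis genes were lower after E3, down to the level of the saline arrays. All 29 tested genes had differences below 0, 10 were called lower (2.34% of all genes) and 0 higher (3.00%), and the median difference was -0.88. The list median was 1.92, 1.97 and 1.93 on the E2 arrays, 0.75, 0.91 and 0.85 on the E3 arrays, and 0.82 to 0.90 on the saline arrays, so the E3 and saline values overlapped. At 2 hr after E3 the same genes had a median of 0.78 above saline. The largest difference was that of Rrp12, a factor for export of the small ribosomal subunit, which read -2.19 to -1.99 after E2 and -4.38, -4.24 and -3.97 after E3, below the saline values of -3.42 to -3.01 (difference -2.12 ± 0.14 (SE), adjusted p = 3.53e-06). Under normexp Rrp12 differed by -1.16, and it, Polr1e and Tbl3 were not called. The snoRNP proteins Nhp2, Gar1 and Nop58 differed by -1.43, -1.07 and -1.01. Nolc1, a nucleolar phosphoprotein, differed by -1.41, the helicase Ddx21 by -1.20, and Polr1e, a subunit of RNA polymerase I, by -1.20. Bop1, Rrs1 and Tbl3 made up the rest of the called genes (-1.29, -1.09 and -1.04). Without the pair of arrays that stood apart, 9 genes of the list were called lower.

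Genes of tRNA charging and of amino acid synthesis showed the same direction. Of 26 tRNA synthetase and serine-asparagine synthesis genes, 6 were called lower (2.34% of all genes), 0 higher (3.00%), 25 had differences below 0, and the median was -0.73. Asns, the asparagine synthetase, read 2.73 to 2.81 after E2, 1.47 to 1.82 after E3 and 1.30 to 1.68 after saline (difference -1.18 ± 0.15 (SE), adjusted p = 0.000142). The serine pathway enzymes Psat1 and Phgdh differed by -1.21 and -1.004, the mitochondrial folate enzyme Mthfd2 by -1.53, and the synthetases Mars1 and Aars by -1.34 and -1.18. Mthfd2 was not called under normexp (-1.10). Without E2 replicate 2 and E3 replicate 3, 3 genes of the list were called lower, and 4 with any single array left out. Amino acid transporters had 0 of 16 genes called by limma (10 at an unadjusted p under 0.05) and a median of -0.27, which became 0.18 under normexp.

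Cholesterol synthesis genes lay between saline and E2 after E3. All 24 tested genes had differences below 0, 10 were called lower (2.34% of all genes) and 0 higher (3.00%), and the median was -0.92. Against saline, 21 genes were called higher after E2 (7.70% of all genes) and 9 after E3 (2.28%), with medians of 1.56 and 0.85. Sqle, the squalene epoxidase, read -0.23 to -0.08 after saline, 2.53, 2.77 and 2.89 after E2, and 0.92, 1.52 and 0.38 after E3 (difference -1.79 ± 0.25 (SE), adjusted p = 0.000209). The 3 groups of Sqle values did not overlap. Among the other called genes, the isoprenoid enzymes Idi1, Fdps, Mvd and Mvk differed by -1.66, -1.65, -1.49 and -1.19, and the sterol ring enzymes Hsd17b7, Msmo1 and Cyp51 by -1.41, -1.28 and -1.15. Without the pair of arrays that stood apart, 7 cholesterol genes were called lower. Fatty acid synthesis genes had 0 of 17 genes called by limma (12 at an unadjusted p under 0.05) and a median of -0.45.

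**Figure D4:**
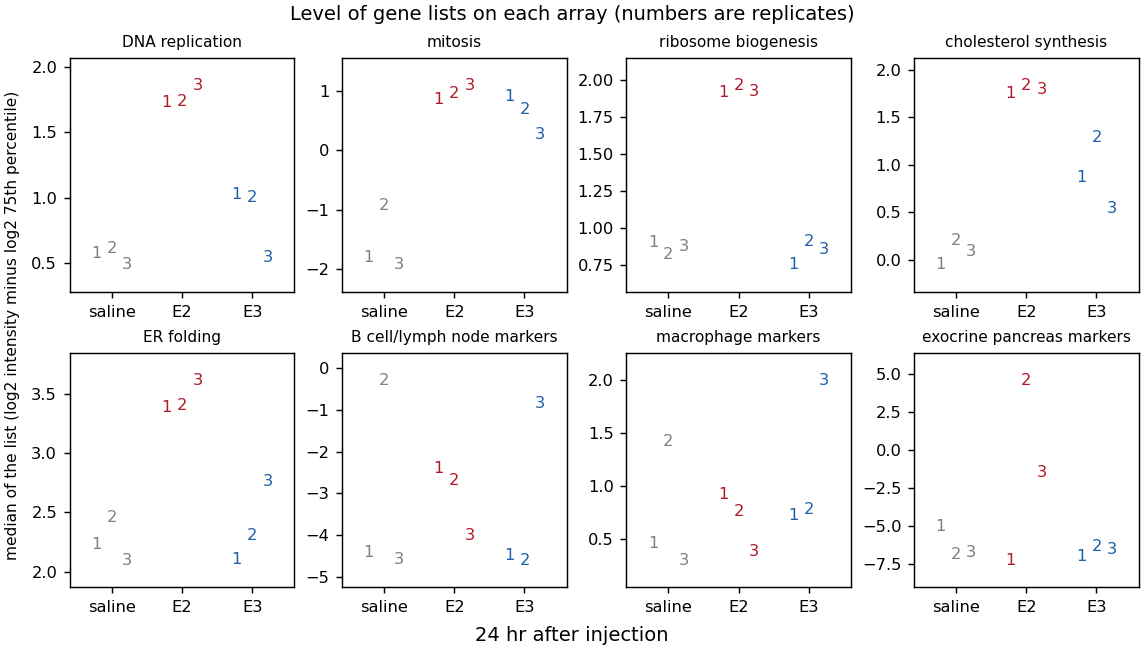
Median log2 level of 8 lists on each 24 hr array, with the replicate number as the symbol. DNA replication and cholesterol synthesis lie between saline and E2 on E3 arrays 1 and 2, ribosome biogenesis lies at saline level after E3, and E3 replicate 3, saline replicate 2 and E2 replicate 2 stand apart in the lymph node, macrophage and pancreas markers.

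Chaperones of the endoplasmic reticulum (ER) were also lower. Of 25 tested ER folding genes, 6 were called lower (2.34% of all genes), 0 higher (3.00%), and 22 had differences below 0, with a median of -0.73. Hspa5 (BiP), the main ER chaperone, read 5.19, 5.19 and 5.39 after E2, 3.68, 3.998 and 4.17 after E3, and 3.86 to 4.20 after saline (difference -1.31 ± 0.15 (SE), adjusted p = 6.89e-05). Calr, a lectin chaperone that binds calcium, read 4.33 to 4.57 after E2 and 3.14 to 3.24 after E3 (difference -1.29 ± 0.13 (SE), adjusted p = 3.85e-05). For both genes the E3 arrays lay apart from the E2 arrays and close to the saline arrays. Manf, Hyou1, Dnajb11 and Dnajc3 differed by -1.64, -1.53, -1.05 and -1.03. Several members were higher on E3 replicate 3 than on the other E3 arrays: Manf read 2.76 there against 1.80 and 2.04, and Creld2 4.23 against 2.61 and 2.98. That array also had the high lymph node markers, and the part of that tissue was not tested. Without it and E2 replicate 2, 8 genes of the list were called lower.

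The ER stress response element is shown for this list because its letters were common in it. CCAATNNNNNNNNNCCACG, on either strand, was in 7 of 21 windows of ER folding genes (33.3%), against 0.162% of tested genes and 0.13% of all windows. The capitals mark the CCAAT and CCACG ends of the match, or their reverse complement.
Hspa5: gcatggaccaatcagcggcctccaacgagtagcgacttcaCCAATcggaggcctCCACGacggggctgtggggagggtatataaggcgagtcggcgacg
Calr: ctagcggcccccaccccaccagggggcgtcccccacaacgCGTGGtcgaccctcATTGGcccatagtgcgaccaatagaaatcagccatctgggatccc
The stretches lie at chr2:34771985-34772083 (plus strand, Hspa5) and chr8:84847035-84847133 (minus strand, Calr). A palindromic estrogen response element of the form GGTCANNNTGACC was in 0 of 332 windows of genes lower after E3 and in 0 of 381 windows of genes higher after E3, against 6 of 13542 windows of tested genes. This says only that these letters are not in these windows.

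Proteasome genes moved by less than 2-fold but with little spread. All 25 tested genes had differences below 0, 24 of them at an adjusted p under 0.05, with a median of -0.46 and 0 called by limma with the 2-fold rule (24 at an unadjusted p under 0.05). The share of all genes at these looser cuts was not counted. With p below 0.001 and no minimum change, limma called 3566 of the 17885 tested genes in either direction. Glycolysis and oxidative phosphorylation had medians of -0.42 and -0.29, with 0 of 16 (12 at an unadjusted p under 0.05 by limma) and 1 of 21 genes called lower (2.34% of all genes). The called gene was Cycs, the electron carrier cytochrome c, which differed by -1.48 ± 0.11 (SE, adjusted p = 6.84e-06) and had been 1.22 above saline 2 hr after E3.

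**Figure D5:**
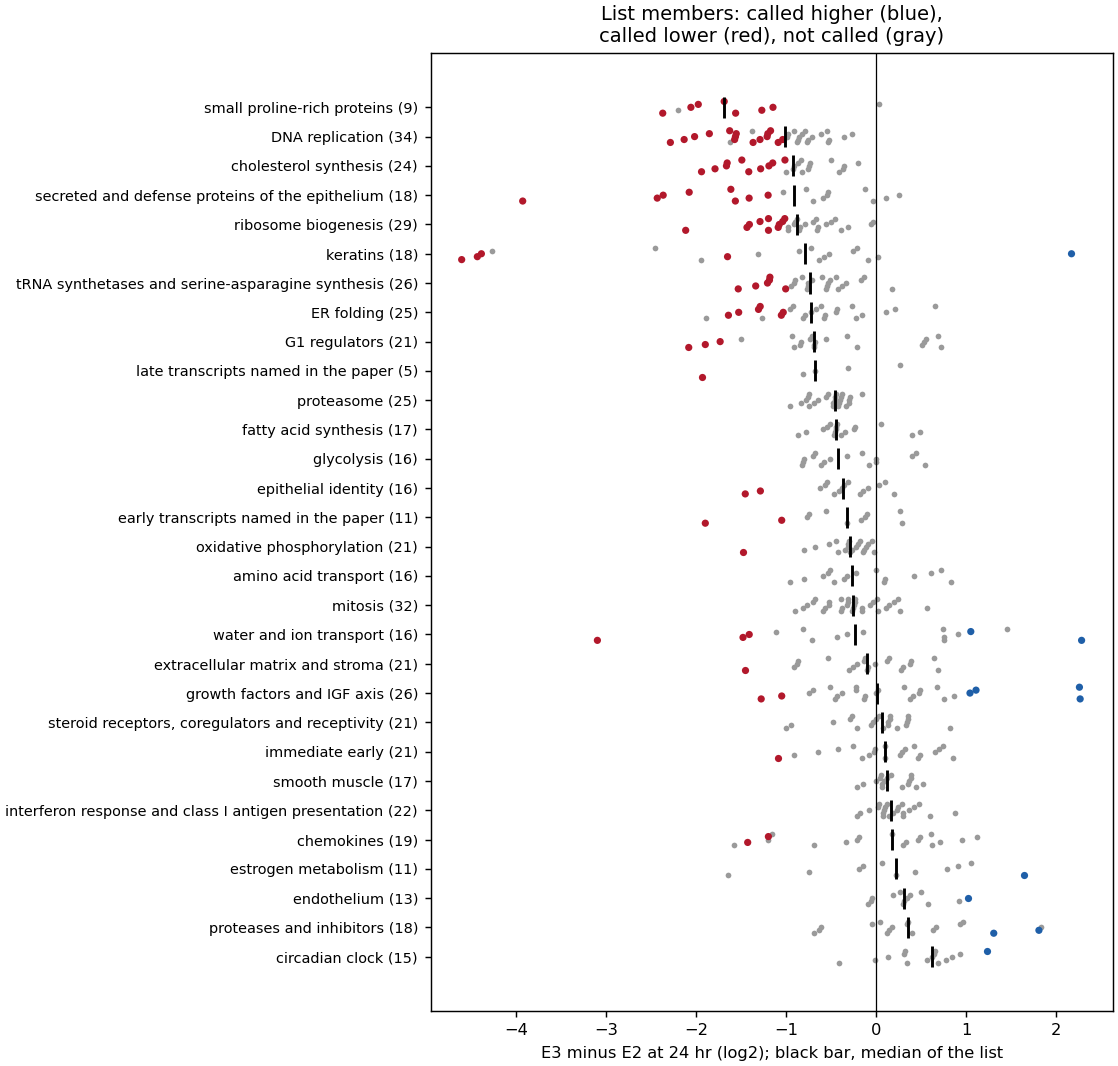
E3 minus E2 at 24 hr (log2) for the tested genes of each list other than the marker lists (number in parentheses), with called genes in blue (higher) and red (lower) and the list median as a black bar. Medians run from -1.69 for small proline-rich proteins to 0.62 for the circadian clock.

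Secreted and defense proteins of the epithelium were lower after E3 in part. Of 18 tested genes, 8 were called lower (2.34% of all genes) and 0 higher (3.00%), with a median of -0.91. By array, the median difference from the E2 mean was -1.28 and -1.36 on E3 replicates 1 and 2 and -0.28 on E3 replicate 3, the array with high macrophage and lymph node markers, whose part was not tested. Besides Padi2, the called genes were Padi1 and Padi4 of the same enzyme family (-2.43 and -1.41), the siderophore-binding lipocalin Lcn2 (-2.37), Wfdc18 (-2.08), the adhesion protein Ceacam1 (-1.61), and the mucins Muc4 and Muc1 (-1.56 and -1.20). Lcn2 read -2.06 to -1.90 after saline, 1.72, 2.10 and 2.12 after E2, and -0.36, -1.19 and 0.39 after E3, so it lay between the other groups without overlap. Muc1, a mucin of the luminal surface, lay at -0.74, -0.74 and -0.51 after E2 and -1.96, -1.92 and -1.71 after E3, both above saline (-3.95 to -3.54). Under normexp Wfdc18, Ceacam1 and Muc1 were not called (-1.11, -1.11 and -0.93). Lactoferrin, Ltf, the classic secretory protein of the estrogen-treated mouse uterus, was not called: it read 3.73, 4.03 and 3.90 after E2 and 2.66, 3.54 and 3.82 after E3, and the difference was -0.55 with an interval of -1.41 to 0.32. The complement component C3 differed by -0.12 (-0.79 to 0.54).

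Small proline-rich proteins, which are cross-linked into the surface of squamous epithelia, had 7 of 9 tested genes called lower (2.34% of all genes) and a median of -1.69. Sprr2f read 4.56, 4.38 and 4.75 after E2, 1.79, 2.95 and 2.76 after E3, and -1.58 to -1.42 after saline, so E3 also held it above saline (difference -2.06 ± 0.36 (SE), adjusted p = 0.00097). Sprr2g, Sprr2e, Sprr2k and Sprr2b differed by -1.98, -1.69, -1.27 and -1.15, Sprr2d by -2.37, and Sprr1a by -2.20 without a call (adjusted p = 0.00553). The Sprr2 genes are close copies of each other and their probes may share signal. Sprr3 is the remaining called gene, but it was not well above background on any E3 array and on 2 of the E2 arrays only, so the data give no more than at least 1.04-fold higher after E2 (means -7.81 and -9.37). Without the pair of arrays that stood apart, 4 genes of the list were called lower. The AP-1 letters TGACTCA or TGAGTCA were in 6 of 8 windows of these genes (75%), against 4.45% of tested genes and 5.16% of all windows, and the stretches of Sprr2d and Sprr2f are shown with the match in capitals since they had the largest differences among the Sprr2 genes.
Sprr2d: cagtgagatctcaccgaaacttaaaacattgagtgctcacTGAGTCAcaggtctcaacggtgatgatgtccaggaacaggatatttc
Sprr2f: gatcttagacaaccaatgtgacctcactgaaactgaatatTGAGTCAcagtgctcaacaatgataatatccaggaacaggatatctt
The stretches lie at chr3:92338907-92338993 (plus strand, Sprr2d) and chr3:92364950-92365036 (plus strand, Sprr2f).

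Keratin differences lay mostly below 0, in 16 of 18 tested genes, with a median of -0.79. Of the 18 genes, 4 were called lower (2.34% of all genes) and 1 higher (3.00%). Krt7, a keratin of simple epithelia, read 5.13 to 5.31 after E2 and 3.42 to 3.77 after E3 (difference -1.65 ± 0.16 (SE), adjusted p = 2.49e-05), against 2.72 to 3.14 after saline. Krt20 was higher after E3, at -2.89 to -2.31 against -4.91 to -4.52 after E2, which is a difference of 2.17 ± 0.33 (SE, adjusted p = 0.000361), and the saline arrays lay at -2.54 to -1.95. Keratins of stratified epithelium were spread widely within each group. Krt5 read 2.33, 5.32 and 1.96 after E3, and Krt14 0.17, 4.11 and -0.35, with E3 replicate 2 the high array in both, and neither was called. Of 16 genes of epithelial identity, 2 were called lower (2.34% of all genes): Elf3, an epithelial ETS factor (-1.45), and Cldn7, a tight junction claudin (-1.29). The median of that list was -0.37, and its level was 1.02 to 1.16 on the E2 arrays against 0.42 to 0.61 on the E3 arrays.

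Water and ion transport genes differed in both directions. Of 16 tested genes, 3 were called lower (2.34% of all genes) and 2 higher (3.00%). Aqp8, a water channel, read -0.43, -0.35 and -0.34 after E2 and -3.32, -3.41 and -3.67 after E3, within the saline values of -3.52 to -2.15 or just below them (difference -3.10 ± 0.30 (SE), adjusted p = 2.61e-05). Aqp5, a water channel of glands, and Cftr, the chloride channel, differed by -1.48 and -1.41. The genes that were higher after E3 were Aqp11 (1.05) and Scnn1g, the gamma subunit of the epithelial sodium channel (2.28). Scnn1g has no value on E2 replicate 2, where its spot was an outlier, so its E2 mean rests on 2 arrays. With that spot kept, the difference was 1.27 and not called, and neither Scnn1g nor Aqp11 was called under normexp (1.88 and 0.999).

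Growth factor genes showed the IGF axis on both sides. Of 26 tested genes, 2 were called lower (2.34% of all genes), 4 were called higher (3.00%), and the median was 0.01. Against saline, 6 genes of the list were called lower after E2 (8.19% of all genes) and 0 after E3 (1.63%). Igf1, the main growth factor of the estrogen-treated stroma, read 2.42, 2.57 and 2.77 after E2 and 1.29, 1.24 and 1.41 after E3, overlapping the saline values of 1.03 to 1.25 (difference -1.28 ± 0.10 (SE), adjusted p = 9.72e-06). Igfbp3, which binds IGF1 and limits its access to the receptor, went the other way. It read 3.72 to 3.88 after saline, 0.92, 1.12 and 0.74 after E2, and 3.08, 3.15 and 3.33 after E3, a difference of 2.26 ± 0.16 (SE, adjusted p = 5.13e-06). Igf1r, the receptor, differed by 1.11 ± 0.11 (SE, adjusted p = 3.64e-05), again with the E3 values (1.66 to 2.03) nearer to saline (2.38 to 2.56) than to E2 (0.65 to 0.97).

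The other called growth factors were Wnt11, Angpt2 and Inhbb. Wnt11, a noncanonical Wnt ligand, read -1.39 to -1.12 after saline, -4.03 to -3.56 after E2, and -1.80 to -1.30 after E3 (difference 2.27 ± 0.16 (SE), adjusted p = 4.9e-06). Angpt2, a vessel-destabilizing ligand of Tie2, differed by 1.04, and Inhbb, the activin and inhibin beta B subunit, by -1.05, although it had been 4.20 above saline 2 hr after E3. Among the early transcripts named by the study, Inhbb and Ppp2r2c (-1.90, 4.05 above saline at 2 hr) were the 2 of 11 called lower at 24 hr (2.34% of all genes). Ppp2r2c was not called without the pair of arrays that stood apart (-1.55), and Inhbb was not called under quantile normalization (-0.98). These transcripts come from earlier work of the same group on E2.

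Steroid receptor and receptivity genes had 0 of 21 genes called by limma, with 8 at an unadjusted p under 0.05 and 6 at an adjusted p under 0.05. Pgr, the progesterone receptor, read -0.996, -0.87 and -0.86 after E2, -1.74, -1.93 and -2.05 after E3, and -2.17 to -1.91 after saline. Its difference of -0.997 ± 0.11 (SE, adjusted p = 4.65e-05) fell just short of the 2-fold limit. Greb1, an estrogen-induced coregulator of the receptor, differed by -0.95 (adjusted p = 0.00132). Both were called lower without E2 replicate 1 (-1.04 and -1.10) and without E3 replicate 1 (-1.08 and -1.08). Esr1, which encodes ERα, differed by 0.00 with an interval of -0.30 to 0.30, from 3.04 to 3.41 after E2 and 2.98 to 3.49 after E3. Ihh, the epithelial hedgehog ligand that progesterone induces, was called lower than saline after both compounds and differed by 0.03 (-0.41 to 0.47).

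Each of the 12 genes with the largest differences upward had a lower mean after E2 than after saline. Slc5a11, a sodium-coupled inositol transporter, had the largest difference: it read 1.496, 1.77 and 1.01 after saline, -2.32, -2.12 and -3.11 after E2, and 1.23, 0.84 and 1.35 after E3 (3.65 ± 0.34 (SE), adjusted p = 2e-05). The E3 and saline values overlapped. Coch, a secreted matrix protein, read -4.09, -4.53 and -4.93 after E2 and -0.54, -1.02 and -1.15 after E3, against 0.90 to 1.30 after saline, and so lay between the groups (3.61 ± 0.26 (SE), adjusted p = 5.13e-06). Aldh1a3, a retinaldehyde dehydrogenase that makes retinoic acid, differed by 2.53 ± 0.30 (SE, adjusted p = 7.9e-05), Car4, a membrane carbonic anhydrase, by 2.70, and Inmt, an amine methyltransferase, by 2.42. In these 3 genes the E3 arrays lay between the saline and the E2 arrays.

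Pamr1, a secreted protein of the stroma, read 3.11 to 3.38 after saline, 0.81, 0.10 and 0.10 after E2, and 2.58, 2.70 and 3.04 after E3 (2.43 ± 0.19 (SE), adjusted p = 8.11e-06). Dusp26, a dual-specificity phosphatase, differed by 2.30, Lgi1, a secreted leucine-rich protein, by 2.52, and Krtap17-1, a keratin-associated protein, by 2.49. Speer4cos, of a family of close copies, differed by 3.03, with 1 of its 2 tested probes called. Kcne2, an accessory subunit of potassium channels, was unlike the others: it lay at -3.18 to -2.72 after saline, -4.19 to -4.00 after E2, and -1.72 to -1.48 after E3, above both, and had been 3.12 above saline 2 hr after E3. Its difference was 2.47 ± 0.32 (SE, adjusted p = 0.000142). Sts, the steroid sulfatase that frees estrogens from their sulfates, was the 1 of 11 estrogen metabolism genes called, and it was higher (3.00% of all genes). It lay at -0.99 to -0.80 after E2, 0.66 to 0.91 after E3, and 1.26 to 1.61 after saline (1.64 ± 0.16 (SE), adjusted p = 2.36e-05).

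The remaining lists held few called genes, beside 2.34% of all genes called lower and 3.00% called higher. Single calls are therefore not read as a result about a list. In the circadian clock, 1 of 15 genes was called higher (3 without the pair of arrays that stood apart), and the median was 0.62. An adjusted p of 0.05 was passed upward by 11 of them, and the share of all genes at that cut was not counted. Hlf, a clock output factor, read -1.20 to -0.99 after E2, -0.12 to 0.48 after E3, and 0.75 to 1.12 after saline (1.23 ± 0.20 (SE), adjusted p = 0.000662), and Nr1d1 (REV-ERBα) differed by 0.93 without a call (adjusted p = 0.0009). The labels give no time of day. Of 18 proteases and inhibitors, the stromelysins Mmp10 (1.81) and Mmp11 (1.31) were called higher. The chemokines Ccl28 (-1.43) and Ccl11 (-1.20), the latter an attractant of eosinophils, were the 2 of 19 called lower. With any single array left out 0 or 1 chemokines were called lower, Ccl28 was -0.17 under normexp, and the list median of 0.17 was -0.54 without E3 replicate 3. Klf4 (-1.09) was the 1 of 21 immediate early genes, Col6a2 (-1.46) the 1 of 21 matrix genes, and Cldn5 (1.02, higher) the 1 of 13 endothelial genes, the last of which was not called under normexp (0.91). Smooth muscle and interferon genes had 0 of 17 and 0 of 22 called by limma (6 and 3 at an unadjusted p under 0.05), with medians of 0.12 and 0.16. The markers of other tissues and of the uterus had 0 genes called by limma, and between 0 and 2 genes of each list had an unadjusted p under 0.05, with medians of -4.86 for exocrine pancreas (-7.496 without E2 replicate 1 and -1.948 without E2 replicate 2), 1.03 for fat, 0.61 for T and NK cells, 0.33 for macrophages, 0.30 for liver, 0.11 for red blood cells (-0.457 without E2 replicate 1 and 0.442 without E2 replicate 3), 0.08 for ovary and oviduct, 0.08 for uterus, -0.24 for neutrophils and eosinophils, -0.24 for B cells and lymph node, and -0.26 for skeletal muscle.

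Few genes were changed farther from saline by E3 than by E2. By the rule that a gene be called against saline after E3, called between the compounds, and well above background on 2 or more E2 or E3 arrays, 11 genes were raised more and 6 lowered more by E3. Ccna1, the cyclin A of germ cells, led those raised: it read -7.16 to -6.50 after saline, -6.02, -6.21 and -6.46 after E2, and -3.62, -3.84 and -4.53 after E3 (2.23 ± 0.35 (SE), adjusted p = 0.000466). Its probe was dim but well above background on all E2 and E3 arrays. Ahrr, the repressor of the aryl hydrocarbon receptor, read -2.59 to -2.36 after saline, -3.38 to -2.60 after E2, and -1.33 to -1.18 after E3 (1.75 ± 0.21 (SE), adjusted p = 9.55e-05). Scg3, a granin of secretory granules, differed by 1.74 ± 0.12 (SE, adjusted p = 5.13e-06), with E2 values below saline and E3 values above it. Katnal2, a katanin-like microtubule protein, lay at -2.86 to -2.52, -2.17 to -2.00, and -0.90 to -0.55 after saline, E2 and E3 (1.37 ± 0.20 (SE), adjusted p = 0.000342).

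The other genes raised more by E3 were Aipl1, Erich3, Smkr-ps, Dhrs2, Spink2, Tcp11 and Glt8d2, with differences of 2.13, 1.97, 1.64, 1.48, 1.35, 1.09 and 1.01. All 7 were dim, with E3 means between -5.42 and -3.20. Under normexp, Aipl1, Erich3, Smkr-ps, Dhrs2, Tcp11 and Glt8d2 were no longer called, with differences of 1.78, 1.69, 1.64, 1.48, 1.39 and 1.31, which left Spink2. Among those lowered more, Scube1, a secreted and membrane-bound EGF-repeat protein, was bright and had the smallest adjusted p: it read 1.14 to 1.42 after saline, 2.31, 2.42 and 2.55 after E2, and 0.25, 0.01 and 0.02 after E3 (-2.33 ± 0.13 (SE), adjusted p = 1.18e-06). E2 held Scube1 above saline and E3 below it, while 2 hr after E3 it had been 1.58 above saline. Fkbp5, a cochaperone of steroid receptors and a known glucocorticoid target, read -2.75 to -2.12, -2.68 to -2.01, and -3.97 to -3.75 after saline, E2 and E3 (-1.42 ± 0.28 (SE), adjusted p = 0.00213), but only 1 of its 3 tested probes was called, and their differences ran from -1.42 to -0.26. The remaining 4, Uox, Mug2, Cyp3a25 and Apon, are known as liver transcripts, with differences of -2.83, -2.56, -1.96 and -1.32. Liver markers were high on the saline arrays (median -1.61 to 0.43) and low on the E2 (-5.80 to -5.17) and E3 arrays (-5.33 to -4.81), and their part in these calls was not tested. Under normexp, Fkbp5, Uox and Mug2 were no longer called, and Cyp3a25 and Apon turned to 0.14 and 0.36.

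Other genes changed alike after both compounds within a stated limit. Among 348 genes raised over saline by both E2 and E3, the 95% interval of the difference lay inside 2-fold either way for 156, 56 were called different, and 136 were not settled. Among 265 genes lowered by both, the counts were 83, 53 and 129. Of the 8 with the largest rises and an interval inside the limit, most were spindle or cytokinesis genes: Dlgap5, Hmmr, Kif20a, Ckap2l, Cep55 and Knstrn. They differed by -0.12, 0.01, 0.01, -0.27, -0.06 and 0.39. The 8 were picked by rank, and the share of such genes among all 156 was not counted. Knstrn read -0.70, -0.77 and -0.79 after E2 and -0.06, -0.23 and -0.82 after E3, and its interval was -0.18 to 0.96. Il1f8, an interleukin-1 family cytokine, differed by -0.33 (-0.69 to 0.03), with E2 and E3 values 2.84 and 2.51 above saline, and Rhd differed by -0.39 (-0.94 to 0.17). Among genes lowered by both, Npl, a lyase of sialic acid, differed by 0.35 (-0.26 to 0.95) and the glutathione transferase Gstm7 by 0.33 (-0.15 to 0.81), while Apoc4, Cyp3a11, Kng1, Serpinf2 and Proc are known as liver transcripts and carry the same limit as above. With any single E2 or E3 array left out, 8 to 12 of these 16 genes no longer had an interval inside the limit.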

How the data were processed

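Total RNA from whole uteri was labeled with Cy3 and hybridized to 1-color Agilent mouse arrays of 41174 gene probes, and the authors extracted the spot intensities with Agilent Feature Extraction (9.5.3.1 per the file headers). The deposited intensity values are processed signals, corrected for background by the scanner software and not normalized between arrays. The authors used Rosetta Resolver, whose error model could not be repeated. Here each intensity was divided by its array's 75th percentile and taken as log2, outlier spots were left out (744 missing probe values), spots of a probe were averaged, and 34760 probes that exceeded background clearly on 2 or more arrays of any group were tested.

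All 15 arrays in 5 groups were fitted with limma 3.58.1 in R 4.3.3, and a gene was called at p below 0.001, the cutoff in the methods, with at least a 2-fold change. The E2 arrays at 2 hr entered only the filter and the estimate of the spread. They were read on another scanner and another day than all other arrays. All p-values are two-sided. Intervals cover 95%. A gene is its probe with the highest mean signal. Probes were named through RefSeq transcript accessions, current symbols or synonyms (32722 of 41174 matched), and otherwise keep the array's name. The fits were tested on simulated data. The number of arrays, 3 per group, limits the precision.

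The named genes were the 12 with the largest differences in each direction that were above background and did not overlap, up to 8 in each direction stronger after E3, 8 in each direction with an interval inside 2-fold, and members of the gene lists. Gene names of the RIKEN or LOC type were passed over. The members and lists were chosen with earlier results of these data known, so no p adjusted over a list is given. Promoter windows came from RefSeq, and a gene without a window was left out of the motif counts. Alternatives covered background correction, scaling, outlier spots, filters, call rules, the arrays fitted, slide, replicate number and arrays left out. Leaving out the arrays that stood apart was chosen after seeing the data. Figures were drawn with matplotlib 3.10.9 in Python 3.11.15. Some members of the lists were counted but are not reported here by name.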

Additional observations from a re-analysis of the deposited data

How the results depend on the processing

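Of 166 genes followed, 96 kept their direction and their side of the threshold under every alternative run, as did 1 of the 16 genes with an interval inside 2-fold. Of 41 list medians, 20 moved by less than the spread between arrays throughout. Of the counts between E3 and E2 (955 genes), E2 and saline (2842), E3 and saline (700), and E3 at 2 hr and saline (2187), normexp background correction gave 630, 1726, 384 and 1338, and p below 0.001 with no minimum change gave 3566, 6699, 2559 and 5230. Normexp raised the median E3 minus E2 difference of all genes from 0.03 to 0.25 on the log2 scale, which differences under it include, and 567 of the 955 genes were called in both settings. The share called higher between E3 and saline was 58.3% in the reported analysis and 87.2% under normexp. With no minimum change, 28 DNA replication genes and 1 mitosis gene were called lower. Under normexp the list medians of amino acid transport (0.18), skeletal muscle markers (0.53) and uterus markers (-0.01) and the genes Cyp3a25 (0.14) and Apon (0.36) reversed, and the ovary and oviduct markers reversed without E2 replicate 2 (-0.041, with 1 array left out at a time from -0.041 to 0.156) and without that array and E3 replicate 3 (-0.006). The red blood cell marker median was -0.457 without E2 replicate 1 and that of chemokines -0.541 without E3 replicate 3. The cause was not tested. Of the genes given as called, Aars, Aipl1, Coch, Col6a2, Dnajc3, E2f8, Fkbp5, Glt8d2, Hyou1, Igf1, Igf1r, Nolc1, Speer4cos and Tyms had other tested probes that were not called. With 1 array left out at a time, these 4 counts ran from 811 to 932, 2535 to 2820, 596 to 693, and 2063 to 2181, DNA replication from 15 to 18, and mitosis from 0 to 0 genes.

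Leaving out 1 of the 6 arrays ended the calls of 9 to 20 of the 166 genes. Among genes given above, those that lost the call without E2 replicate 1 were Scnn1g, Dhrs2, Cyp3a25, Nop58, Mthfd2, Phgdh, Ccl28 and Cldn5. Without E2 replicate 2 they were Erich3, Dhrs2, Cyp3a25, Fkbp5, Dnajb11, Dnajc3, Mthfd2, Phgdh, Sprr2d, Ccl28, Tcp11 and Glt8d2. Without E2 replicate 3 they were Erich3, Dhrs2, Cyp3a25, Apon, Rrs1, Nop58, Dnajb11, Dnajc3, Mthfd2, Phgdh, Wfdc18, Muc4, Sprr2d, Angpt2, Inhbb, Aqp11, Ccl28, Tcp11 and Glt8d2. Without E3 replicate 1 they were Erich3, Dhrs2, Fkbp5, Dnajb11, Dnajc3, Mthfd2, Phgdh, Wfdc18, Muc4, Sprr2d, Angpt2, Inhbb, Aqp11, Ccl28, Ccl11, Cldn5 and Tcp11. Without E3 replicate 2 they were Dhrs2, Cyp3a25, Fkbp5, Apon, Nop58, Dnajb11, Dnajc3, Mthfd2, Phgdh, Wfdc18, Inhbb, Ccl28, Tcp11 and Glt8d2. Without E3 replicate 3 they were Cyp3a25, Apon, Gins2, Cyp51, Tbl3, Nop58, Mthfd2, Phgdh, Sprr2d, Klf4, Ccl28 and Tcp11. Without E2 replicate 2 and E3 replicate 3 together they were Erich3, Smkr-ps, Dhrs2, Cyp3a25, Fkbp5, Apon, Mcm10, Gins2, E2f8, Mvk, Cyp51, Tbl3, Dnajc3, Mthfd2, Psat1, Phgdh, Sprr2d, Sprr2b, Ppp2r2c, Klf4, Ccl28 and Tcp11. Under quantile normalization they were Erich3, Mcm4, Pcna, Nop58, Dnajb11, Dnajc3, Phgdh, Inhbb, Klf4, Tcp11 and Glt8d2, with no scaling Angpt2, Cldn5 and Glt8d2, and with only the arrays compared Cyp3a25, Msmo1, Hyou1, Dnajb11, Sprr2d and Ccl11. Calls were gained without E2 replicate 1 (Pgr, Greb1), E2 replicate 2 (Nr1d1), E3 replicate 1 (Pgr, Greb1), E3 replicate 2 (Ccnd1, Sprr1a, Krt14), and E3 replicate 3 (Creld2, Nr1d1), under quantile normalization (Pgr) and with no scaling (Sprr1a, Pgr, Greb1). With slide as a random block 964 genes were called, and the fitted correlation within a slide was -0.0138. No slide held both groups, so this setting cannot separate the slide from the compound. The replicate numbers did not pair the arrays (r = -0.22, 0.08 and -0.46 between same-numbered E2 and E3 arrays), and with the replicate number as a replicate block 929 genes were called between E3 and E2, 2784 between E2 and saline, 675 between E3 and saline, and 2166 for E3 at 2 hr. No call among the 166 genes changed with that block, whereas 4 of the 16 intervals inside 2-fold no longer were.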

Other observations

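Lists outside those of the report were put together after their values were seen, so they are described and not tested. Mast cell protease genes were among those higher after E3 than after E2. Of 13 genes of a mast cell list, 6 were called higher (3.00% of all genes) and 0 lower, though 1 of the 6, Mrgprb1, was not well above background on any E2 or E3 array, and the median was 0.93, with -0.96 for E2 and 0.09 for E3 against saline. Cma1, a mast cell chymase, read 0.37, -0.17 and 0.29 after saline, -0.97, -0.92 and -0.97 after E2, and 0.33, 0.33 and 0.08 after E3. The mast cell protease genes Mcpt4 and Cpa3 differed by 1.36 and 1.05, and without E2 replicate 2 and E3 replicate 3 Cma1 and Cpa3 were no longer called, with differences of 1.30 and 1.26. Cpa3 also lost its call without any of E2 replicates 1, 2 and 3 and E3 replicates 1 and 2, and under normexp, quantile normalization and no scaling. The receptor genes Kit, Fcer1a and Ms4a2 and the histamine enzyme Hdc were not called, with differences of -0.06, 0.34, 0.52 and 0.48.

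Of 20 genes known as FoxO targets, 7 were called higher (3.00% of all genes) and 0 lower, and the median was 0.85. The differences were above 0 in 18 of them, and those of Sod2 and Gadd45a were -0.50 and -0.20. Pik3ip1, an inhibitor of PI3-kinase, read 2.53, 2.34 and 2.54 after saline, 0.91, 0.92 and 0.57 after E2, and 2.66, 2.61 and 2.57 after E3, so the E3 arrays lay above every saline array. Txnip, which binds thioredoxin, Fbxo32, a ubiquitin ligase subunit of muscle wasting, and Pdk4, a kinase of pyruvate dehydrogenase, differed by 1.43, 1.497 and 1.55, and Fbxo32 was no longer called without E2 replicate 2 and E3 replicate 3 (1.49). Of 5 Ypel genes, 3 were called higher (3.00% of all genes), and Ypel3, Ypel1 and Ypel4 differed by 1.47, 1.75 and 1.86.

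Of 37 motile cilium genes measured, 12 were called higher and 1 lower (3.00% and 2.34% of all genes), with a median of 0.53. The axonemal dynein chains Dnah5 and Dnah2 differed by 1.76 and 1.16 and Cfap57 by 1.61, with 1 of 2 tested probes of Dnah5 and 1 of 3 of Dnah2 called. Pifo was called lower at -2.64, but neither Pifo (-0.48) nor Cfap57 (1.62) was called under normexp, and Foxj1, the master factor of motile cilia, differed by -1.002 without a call (adjusted p = 0.00537), although it was called lower under quantile normalization (-1.04), with no scaling, with the filter or the fit kept to the arrays compared, with slide as a random block, and at an adjusted p under 0.05 with 2-fold.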
